A study of Arabidopsis thaliana with 6 samples.

Results

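Class III peroxidases are the large plant family of secreted haem peroxidases, named PER or PRX. The family was followed here in 6 ATH1 arrays of Arabidopsis thaliana root protoplasts. Its members were the 60 loci of a fixed list, each read from a probe set that the array annotation gives to that gene alone. Of the 60 loci, 44 had such a probe set, 5 occurred only in probe sets shared with a second gene, and 11 were not listed. The 44 are part of 13286 genes with a probe set of their own among 22746 tested probe sets.

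These enzymes use hydrogen peroxide in the cell wall to couple phenolic compounds, as in the polymerisation of lignin and the tightening of wall polymers. They can also release reactive oxygen into the wall. In roots they are known for lignin in the Casparian strip and xylem, for the growth of root hairs and for the oxidative burst of defence. In the root meristem the transcription factor UPB1 represses peroxidase genes and so shifts the balance of reactive oxygen between dividing and elongating cells.

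All protoplasts came from nitrate-treated roots and stayed in nitrate. They carried a plasmid in which the 35S promoter drove the transcription factor HRS1 (AtNIGT1) fused to the glucocorticoid receptor, and transfected cells were sorted by red fluorescent protein. The +DEX group (3 arrays) was given 10 µM dexamethasone (DEX), a steroid that lets the fusion enter the nucleus, together with 35 µM cycloheximide (CHX), which blocks protein synthesis. The −DEX group (3 arrays) was given the same CHX and no DEX. No DEX-treated protoplasts without HRS1 were analysed here, so an effect of DEX itself and one of HRS1 in the nucleus cannot be told apart. The labels do not say whether replicates came from separate preparations, and p-values reflect only the variation among these 6 samples, some of which may be technical. In sorted cells of many types, fewer cells of a type and less RNA per cell cannot be told apart.

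Values are log2 intensities, with the medians of the arrays scaled to be equal. An array's background is the 95th percentile of its 27 probe sets for Bacillus RNA, which was 5.55, 5.08 and 5.73 on the +DEX arrays, against 6.24, 6.60 and 5.36 on the −DEX arrays. One array, −DEX replicate 1, was less like the rest, with a mean Spearman correlation to them of 0.708 where the other arrays had 0.777 to 0.822. On −DEX replicate 1 the ratio of 3′ to 5′ signal was 11.09 for the ubiquitin control, against 5.21 to 8.90 on the other arrays. For the GAPDH control it was 0.75, against 0.91 to 1.24. Whether RNA quality bears on the values of this array was not tested. Differences are +DEX minus −DEX. Levels of different probe sets were not compared, since probes differ in brightness. Of the cell type markers, 2 of 8 root hair genes were measured, EXPA7 and EXPA18. Both lay under background on every array, as did the cortex gene CO2. SGN1 and SGN3, kinases of the endodermal diffusion barrier, lay above it on all 6. Xylem and leaf markers had no named probe set.

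Of the 44 measured peroxidases, 12 lay above background on all 6 arrays, 20 on some arrays and 12 on none. Among all named genes, with 1 probe set each, 29.6% lay above background on every array and 22.4% on none. The 12 were PRX52 (AT5G05340), PRX71 (AT5G64120), PRX72 (AT5G66390), PER36 (AT3G50990), AT1G14550, AT1G68850, AT2G37130, AT4G33420, AT4G36430, AT5G39580, AT5G51890 and AT5G64100. By array, 19, 22 and 23 of the 44 lay above background with DEX, against 18, 14 and 20 without. These counts move with the background level of the array, which was highest on the array with 14, and the part of that level in them was not tested. Over all tested probe sets the numbers above background were 13441, 14687 and 13010 with DEX, against 11690, 10567 and 14062 without.

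**Figure D1:**
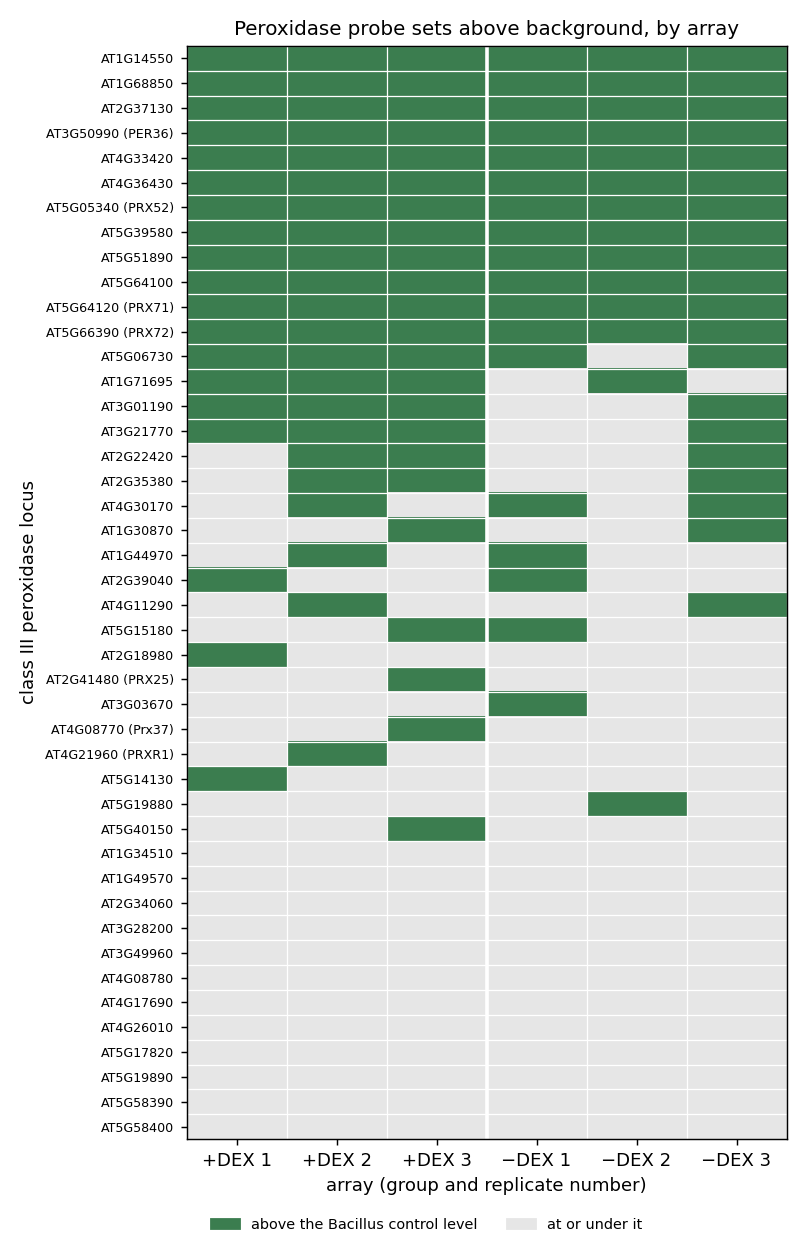
Each row is a measured peroxidase locus and each column an array, with +DEX arrays on the left. Green cells lie above the Bacillus control level of that array, and 12 loci are green throughout.

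A role was listed for 23 of the 60 loci, and detection is given by role. The roles are general knowledge of these loci, several of which have no symbol in the gene table used here, and the counts by role depend on that assignment. For lignin and the Casparian strip, 9 of 11 loci were measured and 5 lay above background on all 6 arrays. For the oxidative burst and pathogen response these numbers were 3 of 6 loci and 2. Of the root hair list 2 of 5 loci were measured and 0 lay above background on every array. Each locus had at most 1 role, so a locus listed elsewhere or without a role may also act in root hairs. The 0 holds for this list alone. AT4G26010, which acts in root hair growth, lay under background on all 6 arrays, and AT1G30870, also of root hairs, lay above it on 1 array of each group. AT5G17820, the 1 locus listed for the UPB1 pathway, was under background throughout, and loci listed elsewhere may also act in that pathway. AT1G44970 and AT4G11290, both of Casparian strip lignin, lay above background on 1 array of each group.

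DEX changed no peroxidase past the threshold. At a limma adjusted p under 0.05 over all probe sets, 0 of the 44 were lower (0.119% of all probe sets) and 0 were higher (0% of all probe sets). The smallest limma adjusted p of a member was 0.73. At an unadjusted limma p under 0.05, 1 member was lower and 2 were higher, against 4.1% and 2.49% of all probe sets. The differences had a median of 0.03 and were positive for 23 members and negative for 21, beside a median of −0.10 and 46.1% positive over all probe sets. Among the 12 members above background on every array, 8 were positive and 4 negative, and the median was 0.14. Over all 7606 probe sets above background on every array it was −0.08, with 45.6% positive. With the arrays quantile-normalised in place of median scaling, the median of all probe sets moved to 0.01 and that of the 44 to 0.25. As deposited they were 0.09 and 0.22. Relative to all probe sets the family median lay 0.13, 0.24 and 0.13 higher under these scalings, 0.015 higher with a floor at a log2 of 5, and at −0.053 without −DEX replicate 2. The median log2 intensity of the 44 on each array, which is a level and not a difference, had an SD of 0.46 between arrays of a group.

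**Figure D2:**
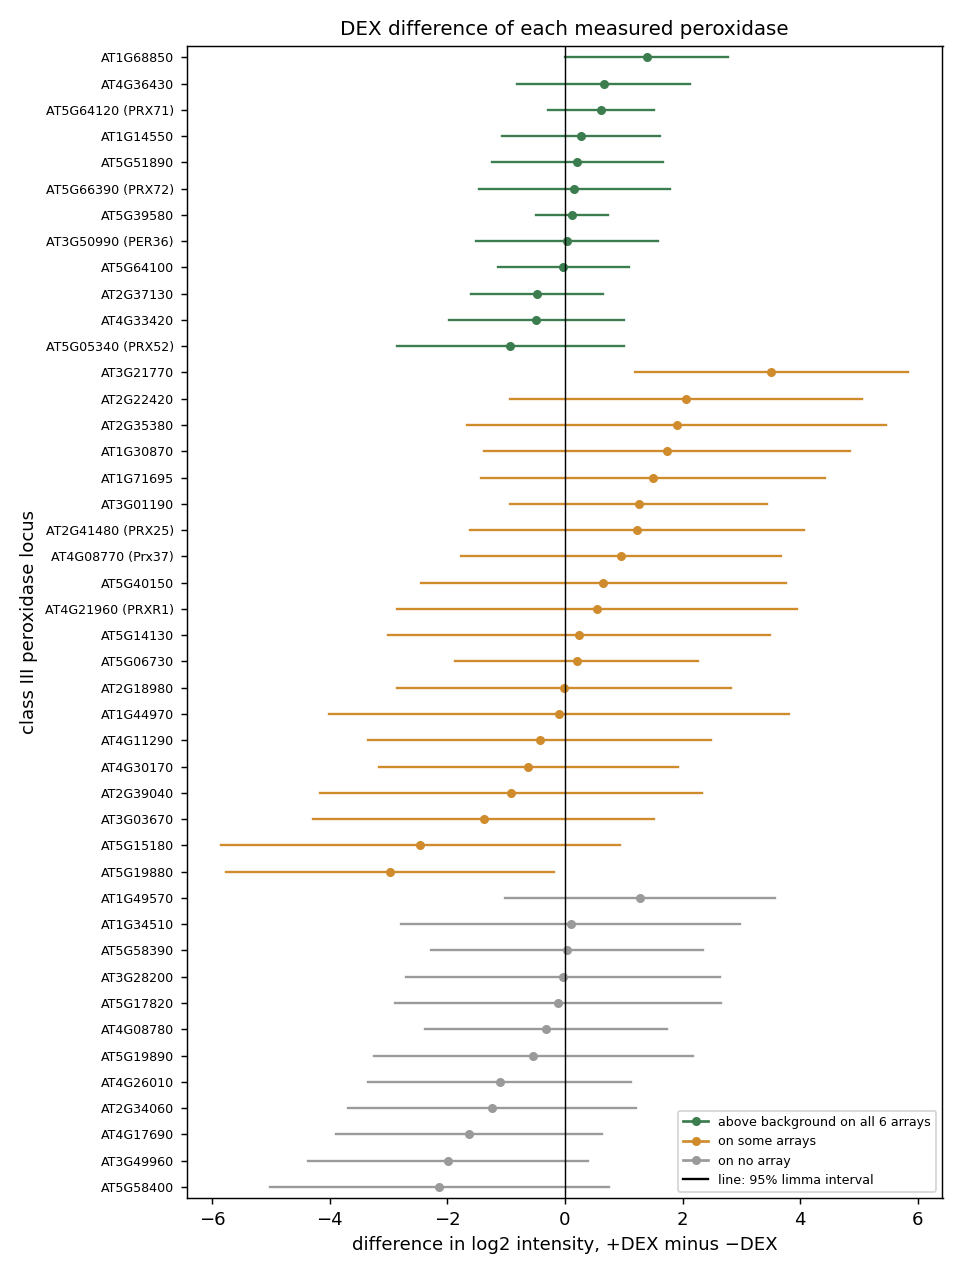
Points are differences in log2 intensity, +DEX minus −DEX, for the 44 measured peroxidases, and lines are 95% limma intervals not adjusted for the number of tests. The 12 loci above background on all 6 arrays are at the top, and intervals widen for loci above background on some arrays or none.

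The lignin peroxidases had differences on both sides of 0. PRX71, an apoplastic enzyme tied to lignin and to restraint of cell expansion, had 11.68, 11.93 and 12.41 on the +DEX arrays, against 10.84, 11.63 and 11.71 on the −DEX arrays. The groups overlapped only where +DEX replicate 1 lay just below −DEX replicate 3. The difference was 0.61 ± 0.42 (SE; limma adjusted p = 0.80), with a 95% interval of −0.29 to 1.51. PRX52, which acts in the lignin of the vascular tissue, had 8.17, 8.30 and 8.30 on the +DEX arrays, against 11.26, 6.87 and 9.43 on the −DEX arrays. The +DEX arrays lay within 0.13 of each other and inside the 4.39 spanned by the −DEX arrays. Its difference of −0.93 ± 0.90 had a 95% interval of −2.85 to 0.998, and it ranged from −2.09 to 0.11 when single arrays were left out.

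AT4G33420, a peroxidase of xylem vessels, showed the same narrow and wide groups as PRX52. It had 8.45, 8.72 and 8.75 on the +DEX arrays, against 10.39, 7.87 and 9.13 on the −DEX arrays. The difference was −0.49 ± 0.70 (SE; limma adjusted p = 0.91). PRX72, which takes part in lignification, had 8.30, 9.61 and 10.19 on the +DEX arrays, against 10.60, 7.67 and 9.34 on the −DEX arrays. Both groups were wide and overlapped, with a difference of 0.16 ± 0.76. AT5G51890, which acts in lignifying vessels, differed by 0.21 ± 0.67, with a 95% interval of −1.23 to 1.66. In PRX52, AT4G33420 and PRX72, a trio chosen after the values were seen, −DEX replicate 1 was the highest and −DEX replicate 2 the lowest array of that group. With a −DEX span above 2 log2 units, this order occurred in 3 of the 12. Among all 7606 probe sets above background on every array it occurred in 3.67%. The trio was picked for this order, so the shares are no test of it.

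**Figure D3:**
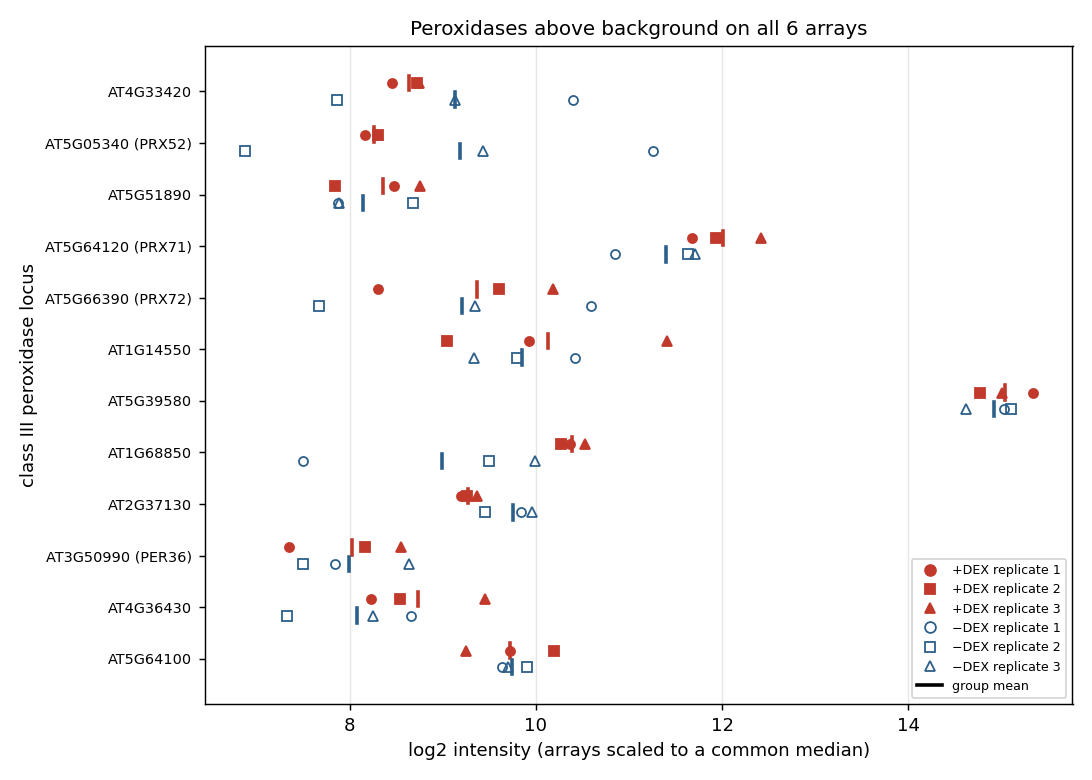
The log2 intensities of the 12 peroxidases above background on all 6 arrays are plotted by array, with filled red symbols for +DEX, open blue symbols for −DEX and bars for group means. The +DEX and −DEX values are separate for AT1G68850 and AT2G37130, and overlap for the other 10.

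Only 3 of the 6 loci listed for the oxidative burst and pathogen response were measured. For the other loci of that list the annotation used names no probe set of a single gene, which does not show that the array lacks one. AT5G39580 is among the measured loci and had the smallest error of the 12. It had 15.34, 14.77 and 15.00 on the +DEX arrays, against 15.03, 15.10 and 14.62 on the −DEX arrays. The groups overlapped almost entirely, the difference was 0.12 ± 0.28 (SE), and the 95% interval ran from −0.48 to 0.73. AT1G14550 differed by 0.28 ± 0.63, and +DEX replicate 3 was its highest array at 11.40. Prx37, which is tied to growth restraint in the shoot, lay above background on 1 of 3 +DEX arrays and 0 of 3 −DEX arrays.

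The other 5 detected members had no role on the fixed lists, and 2 of them had groups without overlap. AT1G68850 had 10.36, 10.27 and 10.52 on the +DEX arrays, against 7.49, 9.49 and 9.99 on the −DEX arrays. Every +DEX array was higher, and −DEX replicate 1 was the lowest of the 6. Its difference was 1.39 ± 0.65 (SE; limma unadjusted p = 0.049, adjusted p = 0.75), and it was 0.64 without −DEX replicate 1. AT2G37130 had 9.20, 9.25 and 9.37 on the +DEX arrays, against 9.84, 9.46 and 9.95 on the −DEX arrays. Every +DEX array was lower, but the difference was small, at −0.48 ± 0.52 (SE; limma adjusted p = 0.87). Groups without overlap occurred in 2 of the 12 and in 13.5% of the 7606 probe sets above background throughout.

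AT4G36430 had 8.22, 8.53 and 9.45 on the +DEX arrays, against 8.66, 7.32 and 8.25 on the −DEX arrays. The groups overlapped, and the difference was 0.66 ± 0.69 (SE; limma adjusted p = 0.87). PER36, known for the release of seed coat mucilage, differed by 0.03 ± 0.72. AT5G64100 differed by −0.03 ± 0.52, with a 95% interval of −1.14 to 1.09. It is separated by 1 gene from PRX71, whose difference was 0.61, and this was the only pair of nearby measured loci with both members above background on every array.

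Outside the 12, AT3G21770 was chosen for its values after they were seen, as the member with the largest difference and the smallest p. It had 10.22, 8.59 and 7.50 on the +DEX arrays, against 3.40, 5.28 and 7.10 on the −DEX arrays. Every +DEX array was higher than every −DEX array, and the gap between +DEX replicate 3 and −DEX replicate 3 was small beside the spread within each group. It lay above background on 3 of 3 +DEX arrays and 1 of 3 −DEX arrays. The difference was 3.51 ± 1.08 (SE; limma unadjusted p = 0.0059, adjusted p = 0.73). Its size depends on values under background on −DEX replicates 1 and 2: with a floor at the background of each array, the difference was 2.12. With a floor at a log2 of 5 it was 2.98, and with single arrays left out it ranged from 2.58 to 4.43. The lowest adjusted p among those, 0.21, came without −DEX replicate 3.

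**Figure D4:**
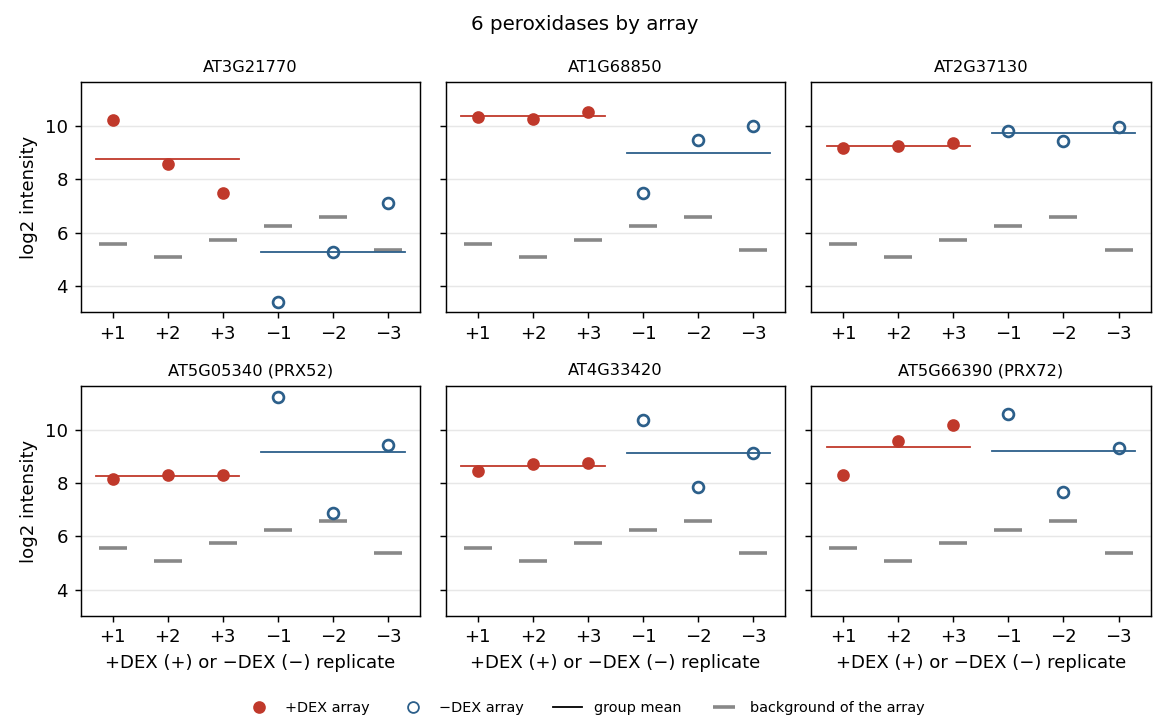
The log2 intensity of 6 peroxidases is plotted on each array, +DEX left and −DEX right, with lines for group means and grey bars for the background of each array. AT3G21770 lies under background on −DEX replicates 1 and 2, and in the lower row −DEX replicate 1 is the highest and −DEX replicate 2 the lowest of the −DEX arrays.

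Further members above background on every +DEX array but not on every −DEX array were AT3G01190 and AT1G71695, each on 1 of 3 −DEX arrays, and AT5G06730, on 2 of 3. With AT3G21770 these were 4 of the 44, and 0 of the 44 showed the converse, where 14.1% and 2.38% of all tested probe sets did. These counts also move with the higher background of −DEX replicates 1 and 2: AT1G71695 had 5.59 on +DEX replicate 2, which is above background there, and 5.69 on −DEX replicate 1, which is not. AT2G22420, of lignified tissues, and AT2G35380 lay above background on 2 +DEX arrays and 1 −DEX array, and AT4G30170 on 1 +DEX array and 2 −DEX arrays. AT5G15180 and AT2G39040 did so on 1 array of each group. PRX25 (AT2G41480), which acts in lignin, PRXR1 (AT4G21960), AT2G18980, AT5G14130 and AT5G40150 did so on 1 +DEX array alone. AT3G03670 and AT5G19880 did so on 1 −DEX array alone. AT5G19880 was the 1 member lower at an unadjusted p under 0.05, with 1.06, 1.85 and 2.45 on the +DEX arrays, against 2.92, 6.62 and 4.76 on the −DEX arrays. Only −DEX replicate 2 lay above background, and the difference of −2.98 shrank to −0.54 once a floor at a log2 of 5 was set.

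AT4G26010 and AT5G17820 were under background on every array, as were AT1G34510, AT1G49570, AT2G34060, AT3G28200, AT3G49960, AT4G08780, AT4G17690, AT5G19890, AT5G58390 and AT5G58400. Their differences are ones of background. AT3G49960, AT4G17690 and AT2G34060 had no overlap between the groups and were lower with DEX, at a signal that gives no measure of the transcript. Of the 44 members, 5 were lower without overlap, these 3 among them, beside 7.55% of all probe sets. Higher without overlap were 2 of the 44, AT3G21770 and AT1G68850, beside 4.99% of all probe sets.

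Genes that act with the peroxidases were thinly covered by the array annotation used, in which 8730 of the 22746 tested probe sets were not listed. Of 10 NADPH oxidases, which make the superoxide from which hydrogen peroxide forms, 3 were measured and 0 passed the limma threshold. RBOHE lay above background on all 6 arrays and differed by 0.14 ± 0.72. RBOHI lay above it on 2 arrays of each group. Its difference of −2.22 ± 1.60 rests on +DEX replicate 3, which lay at the floor, and was −0.21 without that array. Of 10 endodermis and Casparian strip genes, SGN1 and SGN3 were measured and differed by 0.51 ± 0.75 and −0.61 ± 0.86. Of 19 genes of monolignol synthesis and laccases, HCT was the 1 measured, with 4.24, 7.95 and 7.96 on the +DEX arrays, against 8.25, 7.76 and 7.22 on the −DEX arrays. Its difference of −1.02 ± 1.04 rests on +DEX replicate 1 and was 0.21 without that array. Of 10 antioxidant enzymes, 0 had a named probe set.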

How the data were processed

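RNA of 6 sorted protoplast samples was labelled with a 3′ IVT kit, per the labels' protocols, and hybridised to ATH1 arrays. The deposited table gives 1 linear intensity per probe set, which the authors had scaled, since every array had a 2% trimmed mean of 500. The summary method and software are not given in the sources used here. Depth does not apply to arrays, and 3 arrays per group limit the precision. Arrays were scaled to a common median, floored at 1 and put on the log2 scale. Of 22810 probe sets, 64 controls were left out. The test was limma (version 3.58.1, R 4.3.3) with group as the only term and a variance trend, two-sided, Benjamini-Hochberg over all 22746 probe sets at 0.05, and was tested on simulated data.

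Probe sets were named through the array annotation and TAIR10.1 (GCF_000001735.4) locus tags: 13436 had 1 gene, 503 several, 77 no match and 8730 were not listed. The members and lists were chosen with earlier results of these data known. By rule, values on every array were given for detected members without overlap and the 6 largest differences among detected members, and other members by detection. PRX72, AT5G39580, AT3G21770 and AT5G19880 were added after their values were seen. Same-numbered arrays had deviations correlated by 0.02, 0.02 and 0.08, so the numbers were not taken as pairs. Alternatives covered the block, scaling, floor, dim probe sets, variance model, array weights, background level and each array left out.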

Additional observations from a re-analysis of the deposited data

How the results depend on the processing

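In each setting run, 0 peroxidases were lower and 0 higher at a limma adjusted p under 0.05, leave-one-out included, and the replicate block gave 0 and 0, with a smallest member adjusted p of 0.63. Correlations of same-numbered arrays (0.02, 0.02 and 0.08) show no clear pairing. The family median of 0.03 ranged from −0.13 to 0.20 without single arrays and was 0.25 with quantile normalisation. With a floor at the background of each array, added after seeing the data, it was −0.47 and that of all probe sets −0.48, since that background averaged lower on the +DEX arrays and dim members take its value. Members above background on all arrays numbered 12 with either other background level, and 12 to 13 without 1 array. Among the 12, values that were not called turned sign 3 times, and 81 values kept theirs: PER36 to −0.14 and AT5G64100 to 0.023 with quantile normalisation, and AT5G64100 to 0.17 as deposited. As deposited, without the median scaling, AT5G39580 likewise moved up from 0.12 to 0.32 and AT1G68850 from 1.39 to 1.58. The same shift applies to every probe set off the floor. The cause of the turns with quantile normalisation was not tested. Without single arrays, 7 of the 12 turned sign in at least 1 of the 6 fits: AT1G14550 (−0.36 to 0.82), PER36 (AT3G50990, −0.23 to 0.37), AT4G33420 (−1.12 to 0.14), PRX52 (−2.09 to 0.11), AT5G39580 (−0.028 to 0.26), AT5G64100 (−0.26 to 0.21) and PRX72 (−0.60 to 0.86). HCT ranged from −1.646 to 0.21. AT1G68850 was at 0.64 without −DEX replicate 1, against 1.39 with all 6 arrays. Without the dimmest 40% of probe sets 17 members were left. Each measured member had 1 probe set, so averaging over probe sets changed nothing. Signal over background limits 32 of the 44 members.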

Other observations

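The array also holds 3 probe sets that the annotation gives to 2 genes each. They contain 5 of the 60 listed loci and entered no count of measured members above. The one shared by 2 neighbouring members on chromosome 4 had 12.60, 12.10 and 12.32 on the +DEX arrays, against 10.72, 11.48 and 11.62 on the −DEX arrays. Every +DEX array was higher, with a difference of 1.07 ± 0.41 (SE; limma unadjusted p = 0.020, adjusted p = 0.75). A second, shared by 2 neighbouring members on chromosome 2, had 7.75, 7.62 and 8.22 on the +DEX arrays, against 6.92, 7.05 and 6.54 on the −DEX arrays. It was also higher on every +DEX array, with a difference of 1.02 ± 0.78 (SE; limma adjusted p = 0.82). Both lay above background on all 6 arrays. Groups without overlap, in either direction, occurred in 13.5% of all 7606 such probe sets. Higher without overlap were 4.99% of all tested probe sets. Neither shared probe set passed the threshold, and how the signal divides between the 2 genes of a pair was not measured. The third lay above background on 3 of 6 arrays and its groups overlapped.

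The +DEX arrays spanned more than 2 log2 units for 1 of the 12, and the −DEX arrays for 4 of the 12. Over all 7606 probe sets above background on every array these shares were 9.05% with and 24.3% without DEX.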
